A study of Mus musculus with 10 samples.

Results

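The genes described here carry out protein folding and stress signalling in the endoplasmic reticulum, the compartment where secreted and membrane proteins are made. They were chosen by name, 35 in all, as folding enzymes, translocation subunits, degradation factors and stress regulators, and each was read from the probe set annotated to that symbol alone that had the highest mean over all arrays. A probe set is a group of short oligonucleotides that together measure 1 transcript. Of the 35 genes, 34 had such a probe set and Sec61g had none, among 12393 genes so annotated on the Affymetrix mouse 430A array. RNA came from the jejunum of male mice at postnatal day 30, with 5 arrays for Klf9-/- (knockout) mice and 5 for wild type mice according to their labels, and no treatment or strain is named for either group. Klf9 is a DNA-binding regulator of the Kruppel-like family, and the study asked about crypt cell proliferation and villus cell migration in its absence. The design text gives 1 animal per array, whereas the labelling protocol mentions RNA pools, and 1 label of knockout replicate 1 names both genotypes. The sources used here do not describe the deleted part of Klf9. P-values measure the spread between these arrays.

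Proteins enter the endoplasmic reticulum through the Sec61 channel and are folded there by chaperones such as BiP (Hspa5) and by disulfide isomerases. When unfolded proteins build up, the sensors IRE1 (Ern1, Ern2), PERK (Eif2ak3) and ATF6 raise chaperone and degradation genes through Xbp1, Atf4 and Atf6 itself, which is known as the unfolded protein response. In the small intestine the response is known for its role in secretory Paneth and goblet cells, and plasma cells of the lamina propria also depend on Xbp1.

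The known response elements of these genes were looked for in the promoters of RefSeq (build GRCm38.p6), from 250 bases before to 50 bases after the annotated start, and 28 of the 34 measured genes had an entry. The endoplasmic reticulum stress element, read as CCAAT and CCACG separated by 9 bases of any kind on either strand, was present in 7 of the 28 promoters (25.0%) and in 39 of all 32851 promoters of that length (0.119%). The sites are shown because this element is known as one by which chaperone genes of the compartment answer stress. Whether each site shown acts so was not tested. Each is read along the element with the fixed bases in capitals.
Hspa5, chr2:34772025-34772043, plus strand: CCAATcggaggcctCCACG
Hsp90b1, distal site, chr10:86705638-86705656, minus strand: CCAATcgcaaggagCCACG
Hsp90b1, proximal site, chr10:86705533-86705551, plus strand: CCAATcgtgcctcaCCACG
Calr, chr8:84847075-84847093, plus strand: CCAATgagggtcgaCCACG
Canx, chr11:50325800-50325818, minus strand: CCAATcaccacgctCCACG
Dnajc3, chr14:118937827-118937845, plus strand: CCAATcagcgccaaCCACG
Creld2, chr15:88819520-88819538, minus strand: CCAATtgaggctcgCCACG
Pdia6, chr12:17266491-17266509, plus strand: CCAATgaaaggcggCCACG

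The second form of the element, ATTGG and CCACG separated by 1 base of any kind, was in the promoters of Dnajb11 and Herpud1, 2 of 28 (7.14%) against 0.0365% of all promoters. Its last 5 bases, CCACG, are also the end of the first form, and alone they were in 21 of the 28 promoters and in 32.8% of all. The amino acid response core TGATGNAA, known from targets of Atf4, was in those of Herpud1, Trib3, Asns and Chac1 (14.3% against 3.97%), and the unfolded protein response core TGACGTG in that of Hspa5 alone (3.57% against 2.01%). The GC box core GGGCGG, to which Kruppel-like and Sp factors are known to bind, was in 20 of 28 (71.4%), against 35.7% of all promoters. Each motif was searched on both strands, and a match is only a match of letters. Whole promoters follow for 5 genes on which the results turn: Hspa5, Herpud1 and Asns, and Xbp1 and Pdia3, each along the strand of its gene. Capitals mark both stress elements, the unfolded protein response core and the amino acid response core, none of which was found in this window for Xbp1 and Pdia3.
Hspa5, chr2:34771840-34772139, plus strand: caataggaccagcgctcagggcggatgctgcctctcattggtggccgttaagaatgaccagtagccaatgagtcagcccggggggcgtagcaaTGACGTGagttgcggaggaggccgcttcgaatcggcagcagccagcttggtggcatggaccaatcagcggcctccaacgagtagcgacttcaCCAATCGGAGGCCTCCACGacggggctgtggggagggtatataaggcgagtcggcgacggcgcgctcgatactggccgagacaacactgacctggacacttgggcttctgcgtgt
Herpud1, chr8:94386179-94386478, plus strand: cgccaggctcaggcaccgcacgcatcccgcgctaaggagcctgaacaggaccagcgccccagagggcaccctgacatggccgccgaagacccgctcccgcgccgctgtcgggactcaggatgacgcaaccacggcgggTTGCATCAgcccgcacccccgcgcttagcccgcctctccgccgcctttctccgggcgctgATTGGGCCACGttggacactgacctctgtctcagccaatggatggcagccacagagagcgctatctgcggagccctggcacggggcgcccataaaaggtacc
Asns, chr6:7693160-7693459, minus strand: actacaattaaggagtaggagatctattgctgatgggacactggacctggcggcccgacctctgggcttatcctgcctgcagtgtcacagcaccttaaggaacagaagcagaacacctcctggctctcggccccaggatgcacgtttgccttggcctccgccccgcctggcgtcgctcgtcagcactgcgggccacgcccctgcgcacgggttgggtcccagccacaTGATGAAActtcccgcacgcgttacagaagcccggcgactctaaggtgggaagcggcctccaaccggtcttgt
Xbp1, chr11:5520391-5520690, plus strand: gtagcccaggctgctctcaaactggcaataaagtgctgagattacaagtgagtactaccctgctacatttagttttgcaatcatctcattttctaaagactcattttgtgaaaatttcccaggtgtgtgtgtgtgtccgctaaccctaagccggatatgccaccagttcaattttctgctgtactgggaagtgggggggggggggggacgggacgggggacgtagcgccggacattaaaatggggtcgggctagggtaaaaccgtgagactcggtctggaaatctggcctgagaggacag
Pdia3, chr2:121413652-121413951, plus strand: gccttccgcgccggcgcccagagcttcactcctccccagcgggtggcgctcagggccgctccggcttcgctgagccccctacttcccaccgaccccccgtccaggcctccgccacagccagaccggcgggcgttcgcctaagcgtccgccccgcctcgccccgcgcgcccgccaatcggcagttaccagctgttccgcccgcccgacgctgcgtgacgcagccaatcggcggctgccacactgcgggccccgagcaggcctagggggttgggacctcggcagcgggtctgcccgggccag

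**Figure D1:**
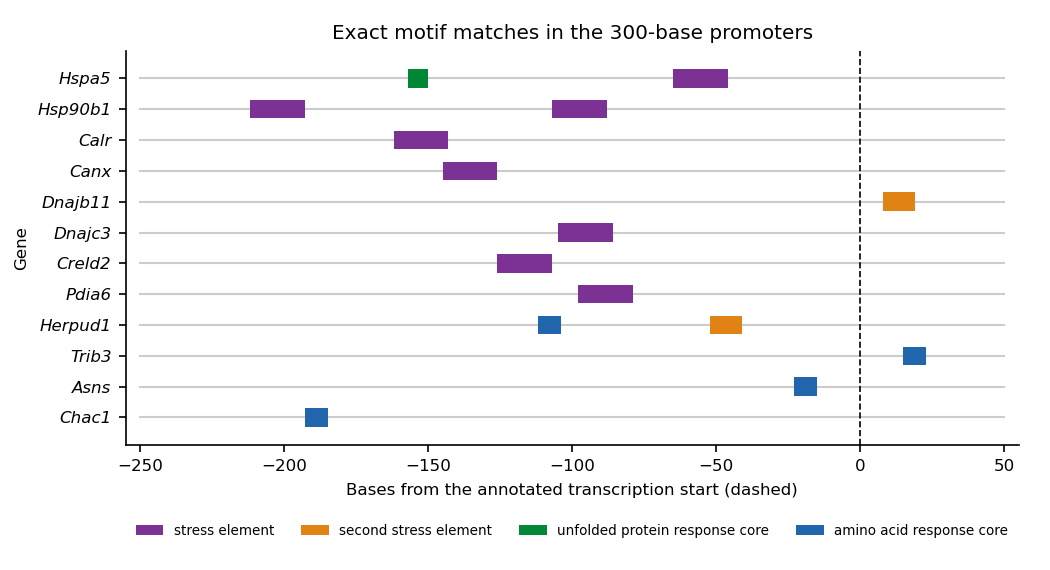
Exact matches of 4 response motifs in the RefSeq promoters that hold at least 1 of them. The x axis gives bases from the annotated transcription start (dashed line), each grey line is the 300-base promoter of the gene on the y axis, and the coloured bars are the matches, with the first stress element in 7 promoters, at 2 places in Hsp90b1.

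The Klf9 signal itself did not follow the labels on 2 of the 10 arrays, and all directions given here are those of the labels. Its brightest probe set had a scaled signal of 944, 485, 340, 526 and 451 on the arrays labelled knockout, in the order of replicates 1 to 5, and of 551, 1320, 1038, 1249 and 964 on those labelled wild type. Knockout replicate 1 thus lay within the range of the wild type arrays and wild type replicate 1 just above the other knockout arrays (-0.86 ± 0.25 on the log2 scale, SE, limma adjusted p = 0.466). Without both arrays the difference was -1.26, a value that follows from leaving out the arrays whose Klf9 signal went against their label and so is no test. Main results are also given without both arrays labelled replicate 1. The median signal of the arrays lay between 170.7 and 193.8 after the authors' scaling. The hybridization times of the arrays fell into 3 sets, which were taken as wash runs although no label names them, and each run held both labels. Fluidics modules 1 and 2 held only knockout arrays and module 3 only wild type arrays, so that module and label cannot be told apart there, and module 4 held 1 knockout and 2 wild type arrays. Of 10 measured markers of absorptive enterocytes, the main cell type of the jejunum, none had a signal below 3460 on any array.

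As a group, the endoplasmic reticulum genes differed little between the labelled groups. Of 34 genes, 25 (73.5%) had a lower and 9 a higher mean on the arrays labelled knockout. Differences ran from -0.42 to 0.24 on the log2 scale, with a median of -0.10. All 13579 tested probe sets had a median of -0.01, and 51.4% were lower. Of 8290 tested genes read likewise from their brightest probe set, 47.5% were lower, with a median of 0.01. In limma, 0 of 34 passed the adjusted threshold of 0.05, as did 0.0% of all tested probe sets, and 2 of 34 (5.88%) had an unadjusted p under 0.05, against 7.89% of all. These 2 were Pdia3 and Xbp1, both lower, where 4.24% of all probe sets were lower and 3.65% higher at that threshold. Within wash runs 1, 2 and 3 the genes with a lower mean numbered 25, 25 and 12 of 34 (medians -0.09, -0.14 and 0.08), and with fluidics module as a block 18 of 34 (median -0.05, all probe sets -0.03). In no gene did the groups fail to overlap on the brightest probe set, against 1.55% of all probe sets. All 34 genes passed the filter on dim probe sets. For all of them the 95% interval of the difference in log2(signal + 50) lay within 2-fold in either direction, for 28 within 1.5-fold. For dim genes such as Ern1 the added 50 narrows the interval, so these are not bounds on the signal itself. Without both arrays labelled replicate 1 the count was 23 lower and 11 higher, the median was -0.08, and Creld2, Pdia3 and Xbp1 had an unadjusted p under 0.05, 8.82% against 10.2% of all probe sets. The adjusted threshold was then passed by 0 of the 34 and by 0.0663% of all.

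**Figure D2:**
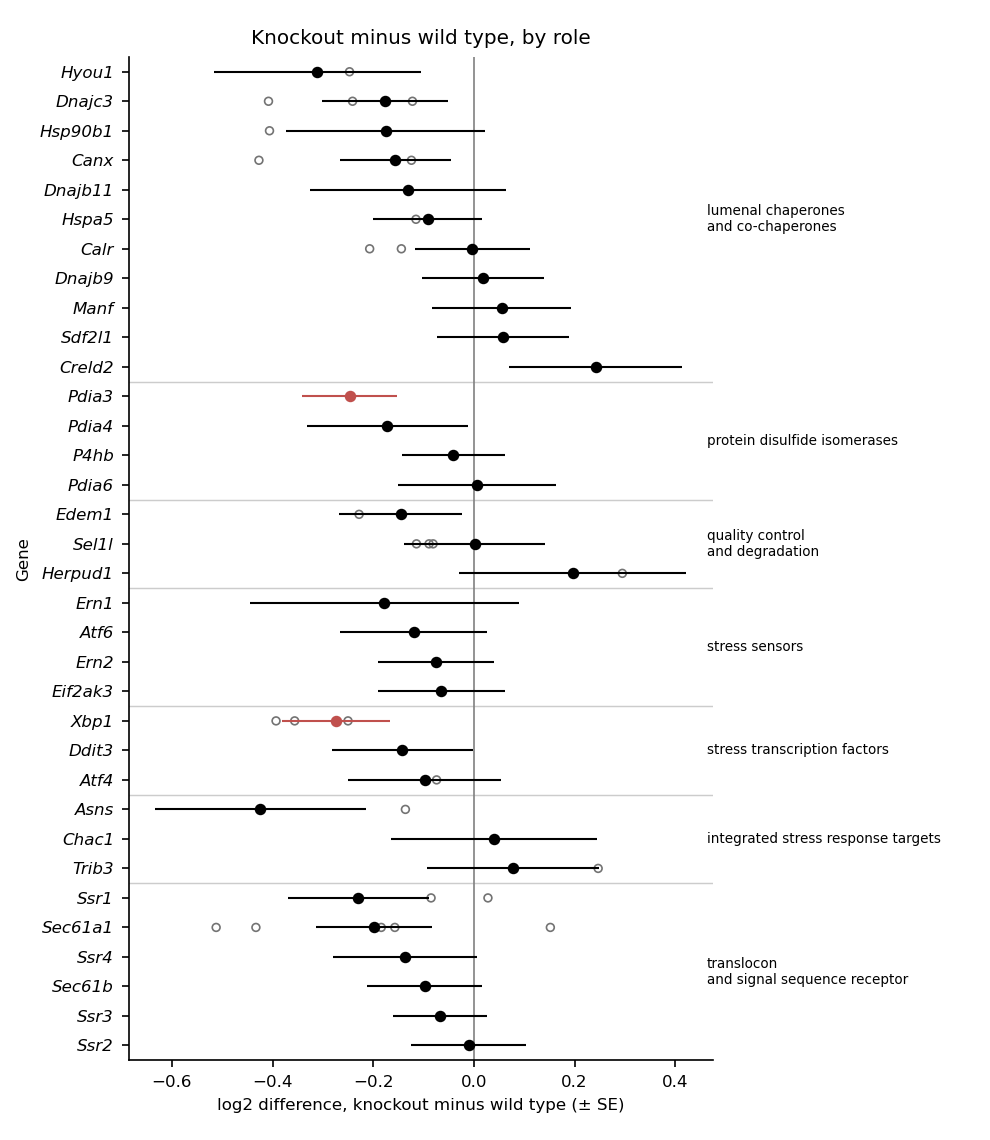
Difference in log2(signal + 50), knockout minus wild type, for 34 genes (y axis) grouped by role. Filled points are the brightest probe set with its SE (n = 5 arrays a group), red where the unadjusted p is under 0.05 (Pdia3 and Xbp1), and open circles are the other tested probe sets of the gene. Most points lie between 0 and -0.4.

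The chaperones of the lumen, which bind unfolded proteins, were lower for 7 of 11 genes and higher for 4 on the arrays labelled knockout, and none of the 11 had an unadjusted p under 0.05. Hspa5 encodes BiP, the main chaperone of the compartment and the usual readout of the unfolded protein response. Its signal was 8960, 11790, 9460, 10160 and 10890 on knockout replicates 1 to 5 and 9931, 12160, 12210, 10840 and 9532 on wild type replicates 1 to 5. The groups overlapped over most of their range, with a log2 difference of -0.09 ± 0.11 (SE; 95% interval -0.33 to 0.14) and an adjusted p of 0.870 in limma. Its other probe set differed by -0.12 ± 0.17, and by 0.05 without both arrays labelled replicate 1.

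Canx, the membrane-bound lectin chaperone that holds glycoproteins during folding, had a signal of 4216, 5747, 4908, 5584 and 6092 on the knockout arrays and of 6078, 6306, 5594, 5444 and 5979 on the wild type arrays. The difference was -0.16 ± 0.11 (SE, limma adjusted p = 0.750), and -0.06 without both arrays labelled replicate 1, and -0.08 without the knockout one alone. Its other probe sets, looked at after their values were seen, differed by -0.43 ± 0.14 (limma unadjusted p = 0.0102, adjusted p = 0.486) and by -0.12 ± 0.15. Without both arrays labelled replicate 1 these were -0.43 and -0.14. Hyou1, which exchanges nucleotide on BiP, read 708, 942, 738, 846 and 981 against 1054, 1744, 705, 754 and 1287, a difference of -0.31 ± 0.21, and of -0.13 without wild type replicate 2. Only wild type replicates 1, 2 and 5 lay above all knockout arrays. Dnajc3, a co-chaperone of BiP, read 1394, 1448, 1394, 1330 and 1271 against 1335, 1232, 1905, 1864 and 1526, a difference of -0.18 ± 0.13, with wild type replicates 3 to 5 above all knockout arrays. The remaining co-chaperones Dnajb9, Dnajb11 and Sdf2l1, the stress-induced factor Manf, and the lectin chaperone Calr, the soluble relative of Canx, differed by between -0.13 and 0.06. Hsp90b1, the chaperone GRP94, differed by -0.18 ± 0.20, on a probe set where knockout replicate 1 (1265) lay below the other 9 arrays (2203 to 3234).

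Creld2, a secreted stress-induced protein of the compartment, had the highest positive difference. It read 541, 1093, 1048, 935 and 927 on the knockout arrays and 581, 869, 784, 827 and 677 on the wild type arrays, a difference of 0.24 ± 0.17 (SE, limma adjusted p = 0.752). Both arrays labelled replicate 1 were the lowest of their groups, and the difference was 0.41 without the knockout one and 0.16 without the wild type one. Without them the groups did not overlap, as for 5.66% of all probe sets, and the difference was 0.33 (exact two-sided permutation p = 0.0286, the smallest that 4 against 4 allows; limma adjusted p over all probe sets = 0.393).

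Of the 4 disulfide isomerases, which form and reshuffle disulfide bonds, 3 were lower and 1 was at 0.01. Pdia3 (ERp57), which works with Calr and Canx on glycoproteins, read 3853, 3828, 3931, 3478 and 4037 on the knockout arrays and 4725, 4781, 4949, 4429 and 3912 on the wild type arrays. Wild type replicate 5 alone fell within the knockout range, and the other 4 wild type arrays lay above all knockout arrays. The mean signal was 3825 ± 211 against 4559 ± 408 (SD, n = 5), a log2 difference of -0.25 ± 0.09 (SE; 95% interval -0.45 to -0.04). The limma adjusted p was 0.543, and the exact two-sided permutation p was 0.0238, where 5 against 5 allows 0.00794 at the smallest. Pdia3 differed by -0.30 and -0.34 within wash runs 1 and 2 but by 0.05 in run 3, which held 1 array of each label, and its unadjusted p in limma was 0.0577 without knockout replicate 4. Pdia4, Pdia6 and P4hb, the founding member of the family, differed by -0.17, 0.01 and -0.04.

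Among the stress transcription factors Xbp1 was lower on the arrays labelled knockout, and Atf4 and Ddit3 differed less. Xbp1 is spliced by IRE1 into a factor that raises chaperone, translocation and degradation genes, and the arrays do not tell its spliced from its unspliced form. Its brightest probe set read 7201, 5599, 4893, 5835 and 6080 on knockout replicates 1 to 5 and 6534, 6978, 7397, 7693 and 7013 on wild type replicates 1 to 5. Knockout replicate 1 lay among the wild type arrays, and the other 4 knockout arrays lay below all of them. The mean was 5921 ± 842 against 7123 ± 442 (SD, n = 5), and the log2 difference -0.27 ± 0.11 (SE; limma unadjusted p = 0.0236, adjusted p = 0.558; exact two-sided permutation p = 0.0317). Without both arrays labelled replicate 1 it was -0.38 (limma unadjusted p = 0.00324, adjusted p = 0.314). The groups then did not overlap, as for 5.66% of all probe sets. Its unadjusted p was 0.0529, 0.0645 and 0.0535 when the array left out was knockout replicate 2, replicate 3 of that label, or wild type replicate 4, in that order.

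Xbp1 had 4 tested probe sets, and all 4 were lower on the knockout arrays, with differences from -0.39 to -0.25 and each with an unadjusted p under 0.05. They measure the same RNA on the same arrays and are not separate evidence, and they were looked at after their values were seen. On the second brightest the knockout arrays read 4530, 5417, 4430, 5022 and 5508 and the wild type arrays 6048, 5576, 5840, 5960 and 6135. On the third they read 857, 1182, 1049, 1078 and 1257 against 1439, 1380, 1411, 1351 and 1379. On both, all 5 knockout arrays lay below all 5 wild type arrays, where 1.55% of all probe sets had groups without overlap. Knockout replicate 1, high on the brightest probe set, was there the lowest or next to the lowest array. The dimmest read 229, 332, 277, 350 and 289 against 406, 509, 305, 356 and 452, with overlapping groups. Averaged over its probe sets Xbp1 differed by -0.32 ± 0.08 (SE; limma adjusted p = 0.437). Its brightest probe set differed by -0.09, -0.49 and -0.21 within wash runs 1, 2 and 3 and by -0.27 within module 4. The mean over probe sets was at -0.35, -0.31 and -0.26 in these runs and at -0.24 in module 4, whose 1 knockout array is also that of run 3.

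**Figure D3:**
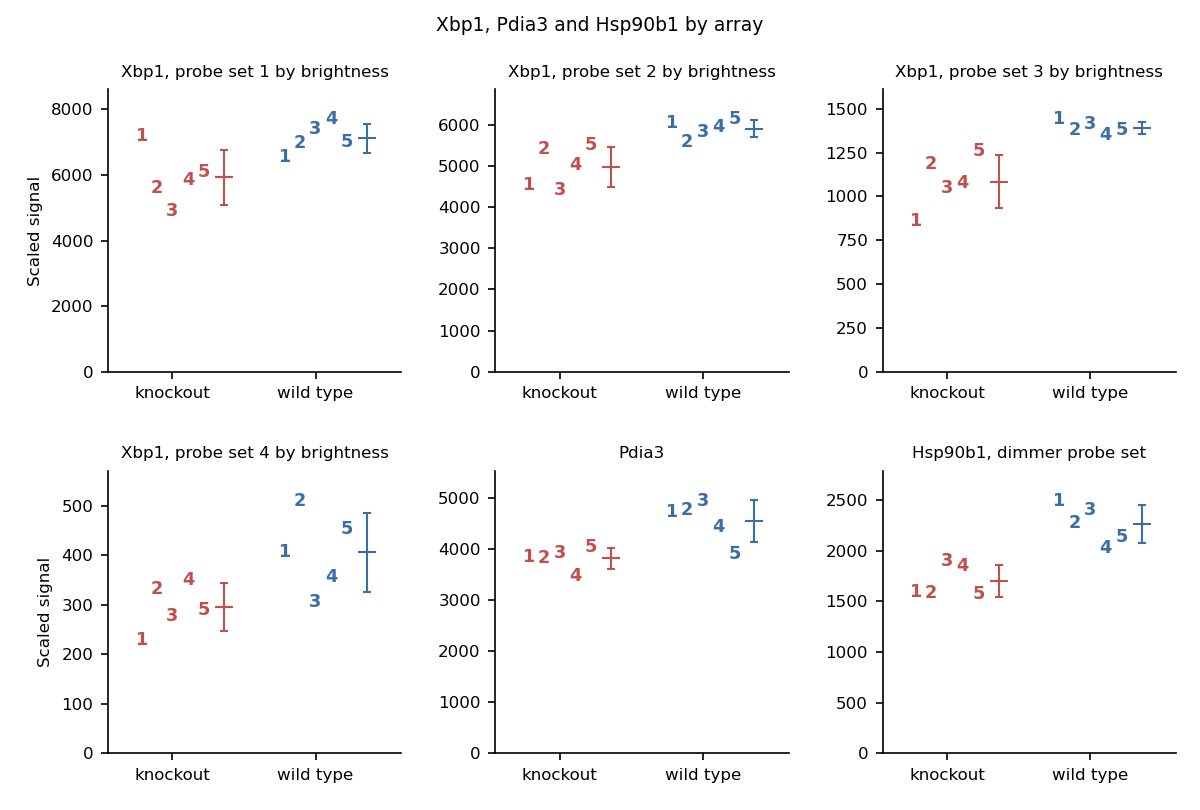
Scaled signal (y axis, from 0) on each array for the 4 probe sets of Xbp1, for Pdia3 and for the dimmer probe set of Hsp90b1, by label (x axis). Digits are replicate numbers, red for knockout and blue for wild type, and bars are the mean and SD of 5 arrays. Knockout replicate 1 is high on the brightest Xbp1 probe set and low on the other 3.

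Xbp1 is known to be high in plasma, Paneth and goblet cells. Listed markers of B and plasma, Paneth and goblet cells mostly had lower means on the arrays labelled knockout. The B and plasma cell list does not part plasma cells from other B cells. Markers of pancreatic acinar cells lay on both sides of 0. Sums given here are over all measured markers of a list, tested or not. These numbered 12 for B and plasma, 6 for Paneth, 8 for goblet and 15 for acinar cells. All 11 tested markers of B and plasma cells were lower (median -0.32). The summed signal of that list ran from 5540 to 36420 on the knockout arrays and from 19420 to 40330 on the wild type arrays. Knockout replicate 3 alone held the low end, and the other knockout arrays ran from 17880 to 36420. All 5 tested Paneth cell markers were lower (median -0.19; sums of 26810 to 37100 against 31150 to 44140), as were 7 of 8 goblet cell markers (median -0.15; sums of 68210 to 109500 against 89310 to 126700). Of these 24 markers 3 had an unadjusted p under 0.05, where 7.89% of all probe sets did, and 0 passed the adjusted threshold in limma. The 3 were Ighm (-0.47) and Blk (-0.33) of the B and plasma cell list and Muc13 (-0.37) of the goblet cell list, all lower. Of 8 tested acinar markers 5 were higher and 3 lower (median 0.01; sums of 18120 to 27240 against 23180 to 33540), with 1 in each direction at that p. Markers of smooth muscle and fat cells lay the other way, higher for 11 of 11 (median 0.37) and 6 of 6 (median 0.57), with 4 of the 11 and 3 of the 6 at an unadjusted p under 0.05, against the same 7.89%. Of 10 enterocyte markers 8 were lower (median -0.14). Without both arrays labelled replicate 1 the medians were -0.36 for B and plasma cells, -0.30 for Paneth cells, -0.28 for goblet cells and -0.03 for acinar cells. Those of smooth muscle (8 higher and 3 lower) and fat cells were then 0.20 and 0.65. No marker of these lists was at 0. Their part in the difference of Xbp1 was not tested, and in these whole-tissue samples fewer cells of a type and less RNA per cell cannot be told apart.

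Atf4, the factor made when PERK slows translation, read 2210, 2330, 2731, 2816 and 3126 on the knockout arrays and 1989, 3727, 2763, 2786 and 3055 on the wild type arrays. The difference of -0.10 ± 0.15 (SE, limma adjusted p = 0.910) rested on wild type replicate 2, without which it was 0.003. Ddit3, which encodes CHOP, the factor tied to cell death under lasting stress, read 276, 231, 150, 282 and 269 against 297, 255, 259, 281 and 244. Its difference was -0.14 ± 0.14 (adjusted p = 0.837), and it was -0.01 without knockout replicate 3, which lay below the other arrays. The sensors Ern1, Ern2, Atf6 and Eif2ak3 differed by -0.18, -0.08, -0.12 and -0.07, with no unadjusted p under 0.05. Over all arrays the unadjusted p of Atf6 in limma was 0.429. Without wild type replicate 2, which read 380 where the other wild type arrays read 564 to 737, Atf6 differed by -0.26 ± 0.11 (SE; limma unadjusted p = 0.0403, adjusted p = 0.626). That array was picked after its Atf6 value was seen, so the p without it is no test. Ern2, the IRE1 form of mucus-producing epithelium, was the dimmest gene, at 131 ± 16.1 against 140 ± 17.8 (SD, n = 5), just above the filter at 123.5.

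Among targets of the integrated stress response, which acts through Atf4, Asns had the largest difference of the 34 genes on their brightest probe sets. Asns, asparagine synthetase, read 760, 938, 1196, 825 and 1311 on the knockout arrays and 1078, 2323, 1160, 1418 and 1035 on the wild type arrays. The difference was -0.42 ± 0.21 (SE; limma adjusted p = 0.648), and -0.23 without wild type replicate 2, which held the single high value. The other Asns probe set differed by -0.14 ± 0.22. Trib3, a pseudokinase, and Chac1, which degrades glutathione, were at 0.08 and 0.04. Of quality control genes, which hand misfolded proteins to the proteasome, Edem1 read 1418, 1468, 1199, 1254 and 1345 against 1590, 1233, 1700, 1730 and 1227, a difference of -0.14 ± 0.12. Herpud1, an organizer of degradation, was at 0.20 ± 0.23 (SE; limma unadjusted p = 0.4), and Sel1l, the adaptor of the Hrd1 ligase, at 0.00 ± 0.14. Without wild type replicate 2, Herpud1 was at 0.40 ± 0.18 (SE; limma unadjusted p = 0.0462, adjusted p = 0.638). That array was picked after its high Herpud1 value was seen, so the p without it is no test.

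All 6 measured subunits of the translocation machinery had a lower mean on the knockout arrays (-0.23 to -0.01), and an unadjusted p under 0.05 was found for 0 of the 6. Sec61a1, the channel itself, read 2942, 4035, 3142, 2783 and 3923 against 3863, 3901, 3659, 3768 and 3939, a difference of -0.20 ± 0.11 (SE, limma adjusted p = 0.688). Knockout replicates 1, 3 and 4 lay below all wild type arrays, and replicates 2 and 5 lay among or above them. The other tested probe sets of Sec61a1, looked at after their values were seen, did not share 1 direction. The second brightest was higher on the knockout arrays, at 0.15 ± 0.16, and at 0.29 without both arrays labelled replicate 1. The rest were at -0.51 ± 0.18, -0.43 ± 0.17, -0.16 ± 0.13 and -0.18 ± 0.15. Ssr1, a subunit of the translocon-associated complex, read 2102, 2958, 3269, 2759 and 3335 against 2853, 3553, 3952, 2863 and 3673, a difference of -0.23 ± 0.14 with overlapping groups, and of -0.12 without knockout replicate 1. Sec61b, Ssr2, Ssr3 and Ssr4 differed by -0.10, -0.01, -0.07 and -0.14. Without both arrays labelled replicate 1, 5 of the 6 were lower.

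The count of genes with a low p depended on the choice of probe set. Of 62 tested probe sets of these genes 10 (16.1%) had an unadjusted p under 0.05, against 7.89% of all, and 3 (4.84%) had groups without overlap, against 1.55%. The 10 belonged to 6 genes, and probe sets of a gene are not independent. Averaged over all probe sets of each gene, Hsp90b1, Canx, Dnajc3, Pdia3, Xbp1 and Sec61a1 were lower with an unadjusted p under 0.05, 6 of 34 where 8.06% of all were, and 0 passed the adjusted threshold in limma, as 0.0106% of all did. The dimmer probe set of Hsp90b1 read 1591, 1580, 1903, 1847 and 1577 on the knockout arrays and 2491, 2270, 2402, 2026 and 2140 on the wild type arrays, without overlap, a difference of -0.41 ± 0.10 (SE, limma adjusted p = 0.441). It was chosen after its values were seen, and on that probe set knockout replicate 1 did not stand apart. Of 15 genes with more than 1 tested probe set, 12 had all of them on the same side of 0, and Sec61a1, Ssr1 and Sel1l did not.

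Single arrays stood apart from the others of their label in many of the 34 genes. Knockout replicate 1 was the lowest knockout array for 19 of 34 genes (55.9%), where it was so for 27.6% of all tested probe sets, and the median of the 34 genes there lay 0.24 below their mean over the arrays on the log2 scale. It was low for Hspa5, Hsp90b1, Calr, Canx, Hyou1, Pdia4, Creld2 and Ssr1 together, and the highest knockout array for Xbp1, Trib3, P4hb, Atf6, Eif2ak3 and Ssr4. Wild type replicate 3 was the highest wild type array for 16 genes (47.1%, against 24.3% of all probe sets), and knockout replicate 5 the highest knockout array for 15 (44.1%, against 15.5%). Without knockout replicate 1 the median difference of the 34 genes was -0.05, and without wild type replicate 3 it was -0.07.

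Wild type replicate 2 was the highest wild type array for 9 of 34 genes (26.5%, against 17.1% of all probe sets) and the lowest for 6 (17.6%, against 21.0%). Those named here were chosen after their values were seen. On it Herpud1 read 1856, where the other wild type arrays read 831 to 953. Dnajb11, a BiP co-chaperone, read 2559 there and 1201 to 1885 on the other 4. Asns, Hyou1, Atf4 and Chac1 were also highest there of the wild type arrays, whereas Hsp90b1 and Atf6 were lowest. On the knockout side Herpud1 was highest on replicate 2 (1784, against 899 to 1397), the other array of that number. Trib3, which like Herpud1, Asns and Chac1 holds the amino acid response core in its promoter, was not highest there (364, against 475 on replicate 1).

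**Figure D4:**
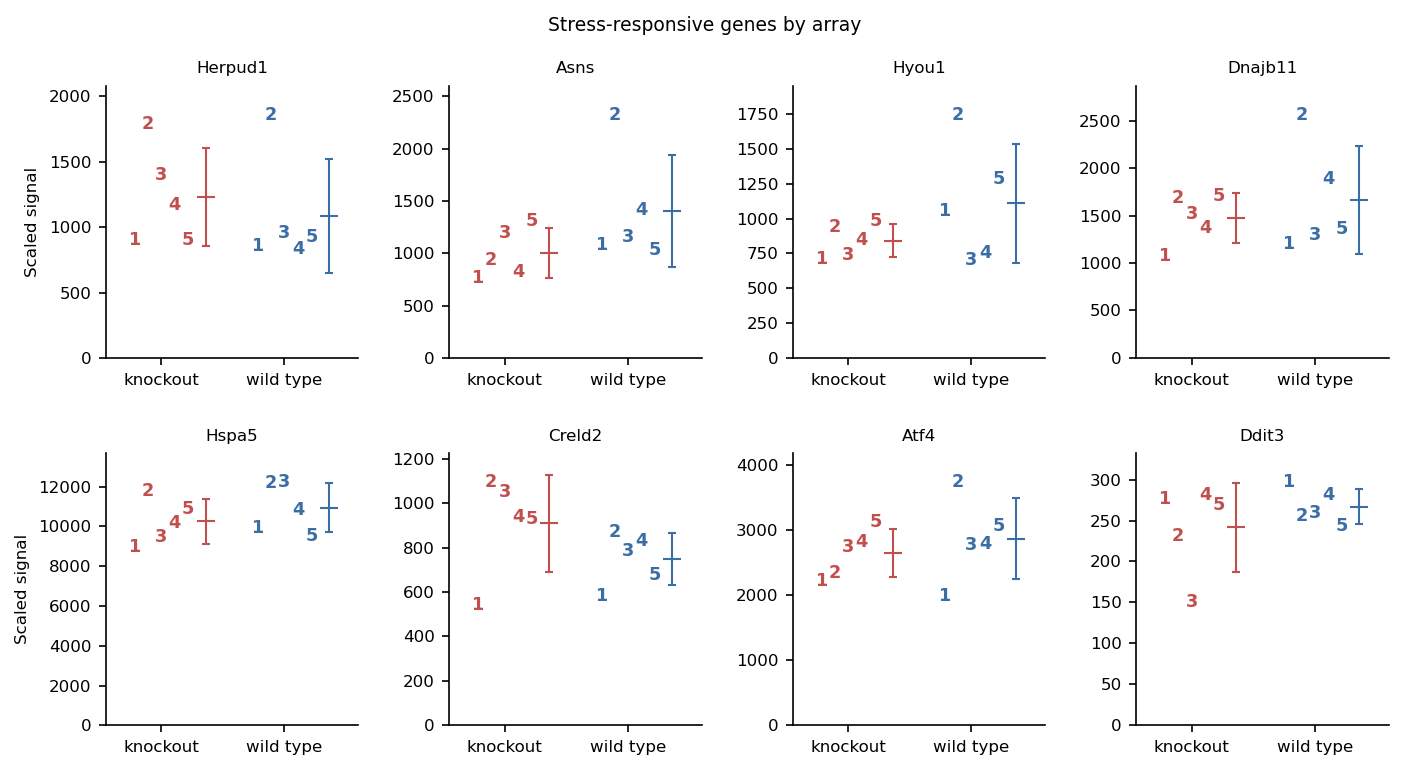
Scaled signal (y axis, from 0) on each array for 8 stress-responsive genes, by label (x axis). Digits are replicate numbers, red for knockout and blue for wild type, and bars are the mean and SD of 5 arrays. Wild type replicate 2 is the highest wild type array for Herpud1, Asns, Hyou1, Dnajb11, Creld2 and Atf4.

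**Figure D5:**
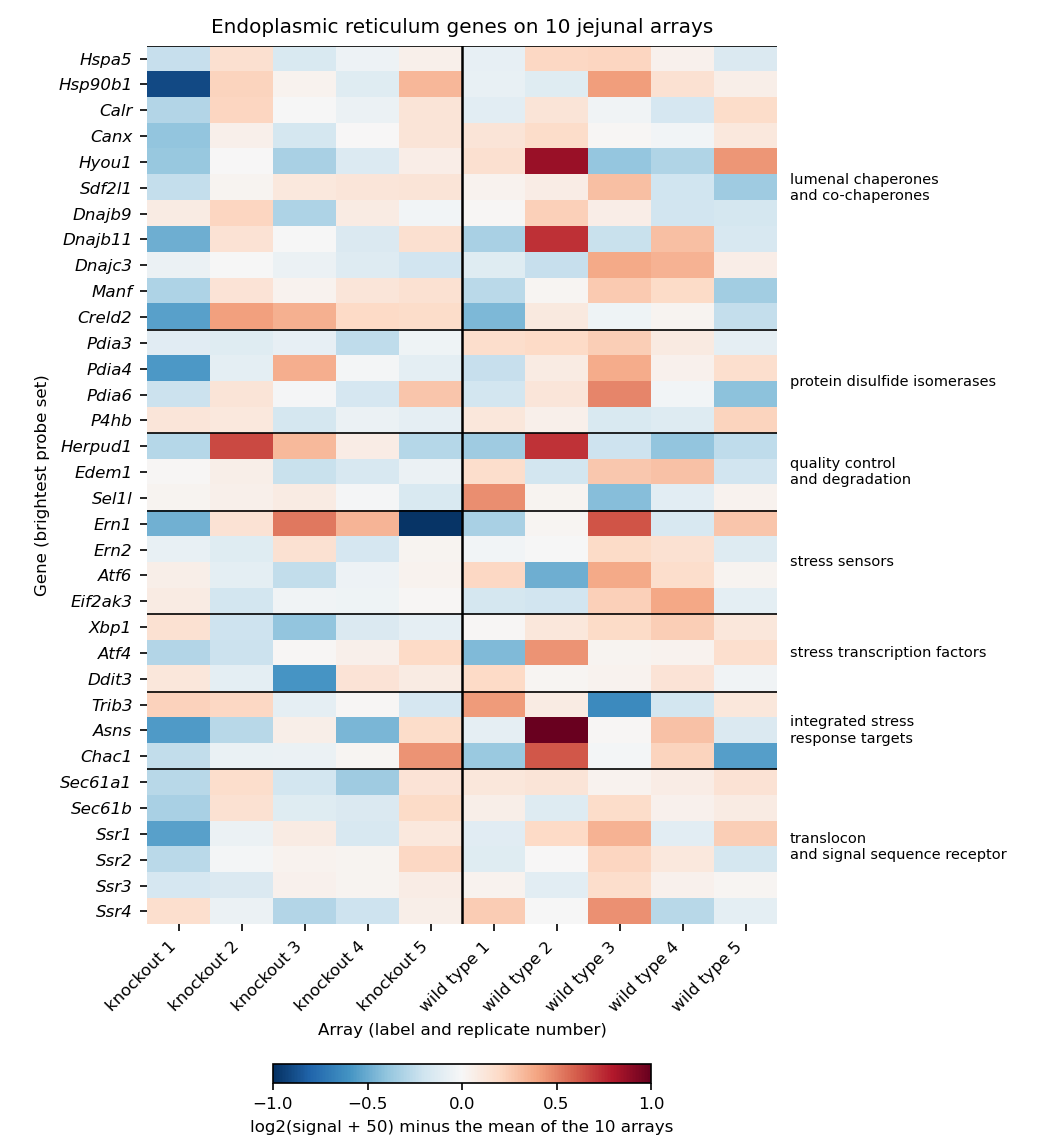
Each cell is log2(signal + 50) of a gene (y axis, brightest probe set) on an array (x axis), minus the gene's mean over the 10 arrays, from blue (lower) to red (higher), with colours ending at -1 and 1. The vertical line parts the labels and horizontal lines part the roles, and knockout replicate 1 is the bluest column, with a median of -0.24.

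Other genes of the same pathways, from lists that did not include the 34, lay on both sides of 0. Of 25 tested folding enzymes outside the 34, 12 were lower and 13 higher (median 0.00), and 0 had an unadjusted p under 0.05 in limma. Ero1b, an oxidase that recharges disulfide isomerases, read 351 to 436 on the knockout arrays and 437 to 522 on the wild type arrays (-0.20 ± 0.10). It was the only 1 of the 25 whose groups did not overlap, against 1.55% of all probe sets. Pdia5 differed by 0.22 ± 0.11. Of 19 degradation genes 9 were lower (median 0.02), and Ubxn4, which recruits the ATPase Vcp to the membrane, was the only one with an unadjusted p under 0.05, lower at -0.24 ± 0.11 (limma adjusted p = 0.623). Derl3, a degradation factor also listed as a plasma cell marker, differed by -0.26 ± 0.12. Of 24 genes of signal peptide recognition, cleavage and N-glycosylation 14 were lower (median -0.07), with Magt1 and Sec62 at -0.22 and -0.18. Of 19 other integrated stress response genes 14 were higher (median 0.09), with Ddit4 at 0.48 ± 0.24 and the amino acid transporter Slc7a5 at -0.37 ± 0.23. Of 29 regulators and vesicle coat genes 18 were lower (median -0.01), with the retrieval receptors Kdelr2 and Kdelr1 at -0.57 ± 0.28 and 0.20 ± 0.10. None of these genes passed the adjusted threshold.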

How the data were processed

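Jejunal RNA was hybridised to 10 Affymetrix mouse 430A arrays, 5 labelled knockout and 5 labelled wild type, and quantified with MAS 5.0, per the series' design text. The authors deposited one linear intensity per probe set and array, already scaled to a 2% trimmed mean of about 500. Each array was rescaled to exactly 500, and log2(signal + 50) was taken, so that differences of dim genes are understated. The 64 controls among 22690 probe sets were removed, and 13579 probe sets above the 40th percentile of mean signal (123.5), or annotated to Klf9, were tested. Names came from the platform annotation (20380 probe sets with 1 symbol, 691 with several, 1555 with none), updated by gene ID for 20351. Groups were compared with limma 3.58.1 (R 4.3.3; eBayes with a trend, two-sided, Benjamini-Hochberg over all tested probe sets), and single genes by an exact two-sided permutation test over all 252 splits into 5 and 5. The fit was first tested on simulated data. SEs and intervals are limma's, and SDs are over 5 arrays. The number of arrays limits the precision.

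The members, lists and alternatives were chosen with earlier results of these data known. Values by array were given for the 10 genes of lowest p, for Hspa5, Xbp1, Ddit3 and Atf4, and otherwise as stated, and up to 4 genes of lowest p were named from each further list. Fluidics modules and hybridization times were read from the deposited settings files, and times more than 30 minutes apart were taken as separate wash runs. The alternatives tried were other pseudocounts, filters, scalings and variance models, blocks for replicate number, for wash run and for module, gene values averaged over probe sets, and arrays left out.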

Additional observations from a re-analysis of the deposited data

Results flagged for a closer look

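Each group of 5 arrays was searched for a value far from the other 4 in each of the 34 genes, 68 groups in all. Only 4 values stood out, which is near the rate of chance, about 1 in 20 groups. Knockout replicate 1, whose Klf9 level goes against its label, held 3 of them, all low. Sdf2l1, a partner of the BiP co-chaperones, read 400 there and 491 to 532 on the other knockout arrays. Manf, a secreted stress-induced factor, read 2410 there and 3060 to 3330 on the others. Creld2 read 541 there and 927 to 1090 on the others. Wild type replicate 2 held the other value, Herpud1 at 1860, where the other wild type arrays read 831 to 953.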

How the results depend on the processing

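No gene of the 34 passed the adjusted threshold under any of the 26 alternatives. The median difference of the 34 genes lay between -0.13 and -0.05 when 1 array was left out and between -0.10 and -0.05 under the other settings. Genes with an unadjusted p under 0.05 numbered 2, and 1 to 4 when 1 array was left out (4 without knockout replicate 5 or wild type replicate 2, 1 without knockout replicate 4 or wild type replicate 4), 6 with values averaged over each gene's probe sets, and 0 under the module block, in which 1 knockout array informs the difference. Over all probe sets the adjusted threshold was passed by 0, by 0 to 5 when 1 array was left out (5 without knockout replicate 1, 3 without knockout replicate 5, 1 without wild type replicate 1), by 3 with array weights and by 9 without both arrays labelled replicate 1. Of 337 recomputed differences of the 13 genes named first, 332 kept their sign and their side of the threshold. With the module as a block Canx (0.056), Ddit3 (0.004), Sec61a1 (0.033) and Ssr1 (0.063) turned positive. Atf4 ranged from -0.219 to 0.003 when 1 array was left out, positive without wild type replicate 2. Of the 34 genes, 10 kept 1 sign in every setting. Knockout and wild type arrays share replicate numbers, and both arrays of a number fell in the same wash run. The deviations of same-numbered arrays correlated at 0.183, 0.032, 0.278, 0.12 and -0.117 for numbers 1 to 5. These were not set against arrays of unlike number, so they cannot decide whether the numbers pair the arrays. The main fit did not pair them. With the replicate block 3 of the 34 genes had an unadjusted p under 0.05 and 0 passed.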
